A study of Mus musculus with 3 samples.

Results

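The Day 7 wound section was compared with the Day 3 wound section of a mouse skin healing series. The assay was Visium, which places a frozen section over a grid of barcoded spots that capture polyadenylated RNA. The spots marked as tissue in the deposited position lists were used, 664 on Day 3 and 549 on Day 7, which is 1213 of the 1910 marked spots of the series. Unique molecular identifiers (UMIs, each standing for 1 captured molecule) were summed per gene over the marked spots of a section and divided by the section's total, which gave CPM (UMIs per 1000000 UMIs). Of the 32285 genes in the matrices, 17657 had a UMI in either section and 10541 had 50 or more UMIs over both, and these 10541 genes were compared.

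Both sections came from wounded skin of C57BL/6J mice, with no treatment or allele given in the labels, and they differed by the labels only in the time since wounding, 3 or 7 days. By the study's methods C57BL/6J wounds were made in adult males, through the full thickness of the back skin, and were harvested with a wider punch than the one that made them, so a section can also hold unwounded skin and underlying muscle. The third section of the series, from Day 14, was not compared here. With 1 section per day there was no replicate, no test between days was made, and the 95% intervals given with values cover counting error only. A difference between animals, wounds or planes of section cannot be told apart from a difference between days.

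The Day 3 section held 1772259 UMIs in its marked spots and the Day 7 section 4442962. Per marked spot the medians were 1513 UMIs on Day 3 against 6687 on Day 7, and 769 detected genes against 2936, so the same CPM carried a wider interval on Day 3. The share of mitochondrial UMIs was 6.48% on Day 3 and 3.73% on Day 7. The marks covered 51.0% of all UMIs of the Day 3 slide and 40.8% of those of the Day 7 slide, so much tissue RNA lay outside them. The labelled tissue was checked by its markers. A keratin of the epidermis (*Krt5*, 987 and 986 CPM on Day 3 and Day 7) and dermal collagen (*Col1a1*, 22693 and 30560 CPM) were present in both sections. Presence does not give the amount of a tissue: 9 genes of basal keratinocytes, *Krt5* among them, summed to 5210 CPM on Day 3 and 2985 CPM on Day 7.

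A skin wound first fills with a clot and with neutrophils, which are drawn by chemokines and alarm cytokines and are followed by monocytes and macrophages. Granulation tissue then replaces the clot: fibroblasts lay down a provisional matrix and new collagen, some become contractile myofibroblasts, capillaries grow in, and keratinocytes migrate across from the edge. To describe these programmes, 37 lists with 409 genes were used, 14 lists for inflammation, 10 for granulation and 13 for the tissue compartments of the section. A gene was counted as higher on Day 7 when its CPM ratio of Day 7 over Day 3 was 2 or more with an interval above 1, and as lower when the ratio was 1/2 or less with an interval below 1.

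Among all 10541 genes, 838 were higher on Day 7 (7.95%), 684 were lower (6.49%) and 9019 were neither. The median log2 ratio over all genes was 0.04, with quartiles of -0.36 and 0.46. These shares are the background for the lists, and no test of a list was made. A gene that is scarce in 1 section passes the minimum only through the other, so a count over such members is partly set by the minimum, while the sums of a list use all its members. The genes just inside the minimum were 66 with 50 UMIs over both sections, and 60 genes just outside it had 49.

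**Figure D1:**
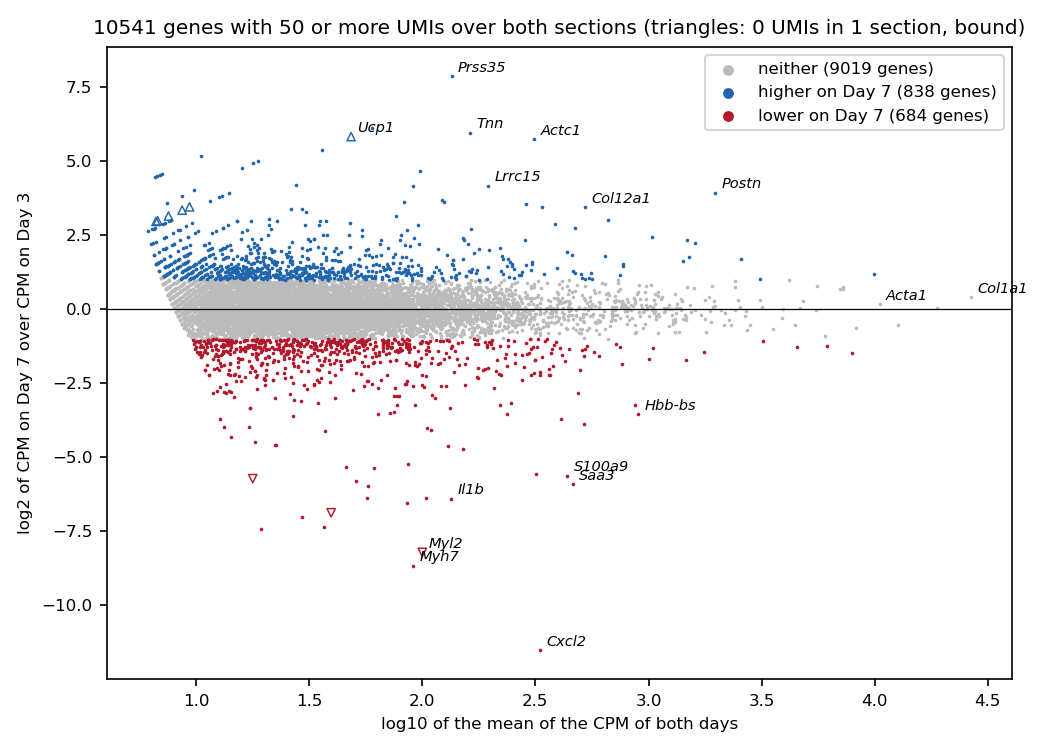
Each dot is a gene, with the log10 of its mean CPM over both sections on the horizontal axis and the log2 ratio of Day 7 over Day 3 on the vertical axis; open triangles are genes with no UMI in 1 section, placed at their bound. The 838 higher genes (blue) and 684 lower genes (red) lie around a median of 0.04, and *Cxcl2* at -11.52 and *Prss35* at 7.89 have the lowest and highest plotted ratios.

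The counts of the inflammation lists leaned to lower genes and those of the granulation lists to higher genes, although most granulation genes were neither. Of 149 inflammation genes 121 had enough UMIs, and 65 of these (53.7%) were lower on Day 7 and 1 was higher. Of 135 granulation genes 130 had enough UMIs, and 33 (25.4%) were higher, 10 (7.69%) lower and 87 neither, a share of lower genes near the background. The tissue lists were mixed, with 19 of 111 genes higher and 41 lower. These counts include genes that passed the minimum through a single section, so they are partly set by it. The lists were written with earlier results of these data known, so their directions are a description.

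**Figure D2:**
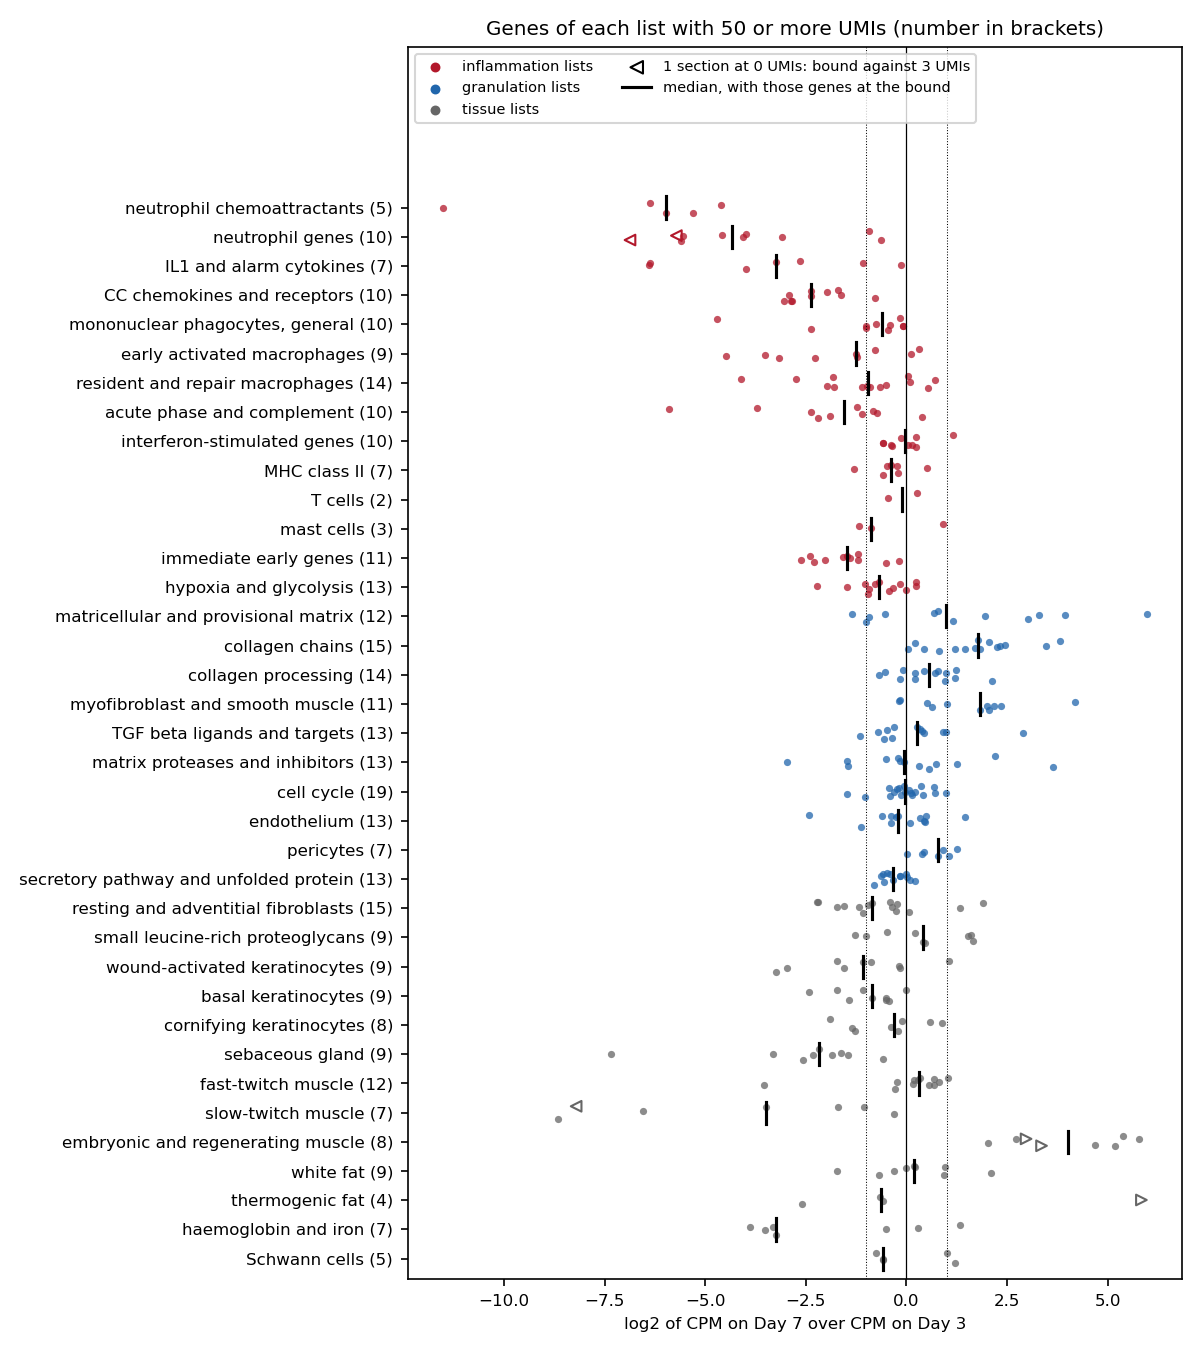
Each dot is a gene of a list with 50 or more UMIs, placed by its log2 ratio of CPM on Day 7 over Day 3; black bars are list medians, dotted lines mark 2-fold, and open triangles are bounds for genes without UMIs in 1 section. The inflammation lists (red) reach down to -11.52 and hold 1 gene past 2-fold on the higher side, whereas the collagen and matricellular lists (blue) reach up to 5.97.

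The neutrophil chemoattractants had the lowest summed ratio of the 37 lists. The list holds CXC chemokines that act on the neutrophil receptor CXCR2, the chemokines *Ccl3* and *Ccl4*, and *Csf3*, the growth factor of granulocytes. Its members summed to 1341 CPM in the Day 3 section (1287 to 1396) against 18.01 CPM in the Day 7 section (14.3 to 22.4), which is 74.5-fold lower. The 5 members with enough UMIs had 45 or fewer on Day 7 and so passed the minimum through Day 3, which makes their common direction no finding of its own. In bulk values of this kind, fewer cells of a type and less RNA per cell cannot be told apart.

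Among the members, *Cxcl2* stood at 660.2 CPM on Day 3 and had 1 UMI left on Day 7, which is 0.225 CPM, a log2 ratio of -11.52 with an interval from -16.82 to -9.04. *Cxcl5* was at 206 CPM on Day 3 against 2.48 CPM on Day 7 (log2 ratio -6.38, -7.39 to -5.52). *Cxcl3* was at 89.7 and 2.25 CPM (-5.32, -6.40 to -4.40). The macrophage inflammatory proteins followed the same order, *Ccl3* with 113 and 1.80 CPM and *Ccl4* with 248 and 10.1 CPM. *Cxcl1* had 36 UMIs on Day 3 against 5 on Day 7, and *Csf3* had 5 and 0, both under the minimum.

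The CXC chemokine genes of the list lie side by side, at chr5:90759360-90905938 of the GRCm38 assembly (GENCODE M21 annotation), a span of 146.6 kb with 3 lower genes and 1 under the minimum. NF-kB, the factor that alarm signals activate, is the textbook regulator of these genes, and 3 of the 4 list members with a promoter entry held the letters of its site, so these 3 promoters are shown. The windows are from RefSeq on GRCm38.p6, 120 bases each, 5′ to 3′ on the plus strand, at chr5:90891110-90891229 (*Cxcl1*), chr5:90903756-90903875 (*Cxcl2*) and chr5:90785973-90786092 (*Cxcl3*). Capitals mark every match, on either strand, to GGG, then 2 bases of any kind, then TTTCC.
Cxcl1: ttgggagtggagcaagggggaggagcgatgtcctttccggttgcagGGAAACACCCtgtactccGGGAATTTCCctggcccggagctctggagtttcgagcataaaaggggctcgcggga
Cxcl2: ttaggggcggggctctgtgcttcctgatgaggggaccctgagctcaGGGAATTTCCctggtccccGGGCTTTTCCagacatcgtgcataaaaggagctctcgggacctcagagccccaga
Cxcl3: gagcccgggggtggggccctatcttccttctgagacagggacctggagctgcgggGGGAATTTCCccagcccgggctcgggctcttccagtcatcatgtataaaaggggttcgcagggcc

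The *Cxcl1* and *Cxcl2* windows held 2 matches each and the *Cxcl3* window 1, the first at -89, -97 and -73 from the start site. The same letters occurred in 535 of 32851 promoters of 300 bases (1.63%). Counted by gene, with a match in any of its promoters, they occurred in 22 of 498 genes lower on Day 7 (4.42%). The same count gave 7 of 645 genes higher (1.09%) and 137 of 7220 genes that were neither (1.90%). The share over all promoters counts single promoters and so has another basis. A match is a stretch of letters, and binding was not measured.

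Genes expressed by neutrophils themselves fell with the chemoattractants. The summed list was at 2365 CPM on Day 3 against 204 CPM on Day 7, 11.6-fold lower, and 8 of 10 members with enough UMIs were lower. Of these, *Retnlg*, *Trem1*, *Clec4e* and *Csf3r* had 27 or fewer UMIs on Day 7. They passed the minimum through Day 3, so the count is partly set by it. *S100a8*, whose product pairs with that of *S100a9* as calprotectin, was at 622 CPM on Day 3 (586 to 660.2) against 13.3 CPM on Day 7 (10.1 to 17.1). *Trem1*, an amplifying receptor of neutrophils and monocytes, had 140 UMIs on Day 3 against none on Day 7, at least 117-fold lower against a floor of 3 UMIs. *Retnlg*, a granulocyte gene, had 63 UMIs and none, at least 52.6-fold lower. The members that were neither higher nor lower were *Mmp9*, a gelatinase that macrophages and keratinocytes also make, at 98.2 and 51.8 CPM, and *G0s2*, which fat also expresses, at 133 and 85.1 CPM.

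Most interleukin 1 genes with enough UMIs were lower on Day 7. *Il1b* was at 264 CPM on Day 3 against 3.15 CPM on Day 7. The inhibitors of the pathway were lower as well, the decoy receptor *Il1r2* with 168 and 17.8 CPM (log2 ratio -3.24) and the receptor antagonist *Il1rn* with 130.3 and 20.9 CPM (-2.64). *Il1r1*, the signalling receptor, was at 70.0 and 63.9 CPM (-0.13, -0.44 to 0.19). The other ligand, *Il1a*, had 8 UMIs on Day 3 and 17 on Day 7, under the minimum (-0.24, -1.53 to 1.18). *Ptgs2*, the inducible enzyme of prostaglandin synthesis, was at 113 and 1.35 CPM, and *Tnf* at 24.8 and 1.58 CPM. In sum 6 of the 7 members with enough UMIs were lower, with a list median of -3.24, and 5 of 12 members were under the minimum. *Il1b*, *Ptgs2* and *Tnf* had 14 or fewer UMIs on Day 7 and passed the minimum through Day 3, so this count is partly set by it.

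Across the Day 3 section the chemoattractants and the neutrophil genes were high in the same spots. Each spot was thinned to 1000 UMIs, which left 426 spots on Day 3 and 525 on Day 7. A chemoattractant UMI was found in all but 41.3% of the thinned Day 3 spots, and 98.5% of the Day 7 spots had none. On Day 3 the 43 richest spots held 44.8% of the chemoattractant UMIs. Over the 426 spots of Day 3, which share 1 section, chemoattractants and neutrophil genes had a Pearson correlation of 0.57 on a log scale, and neutrophil genes and wound-activated keratinocyte genes one of 0.38.

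**Figure D3:**
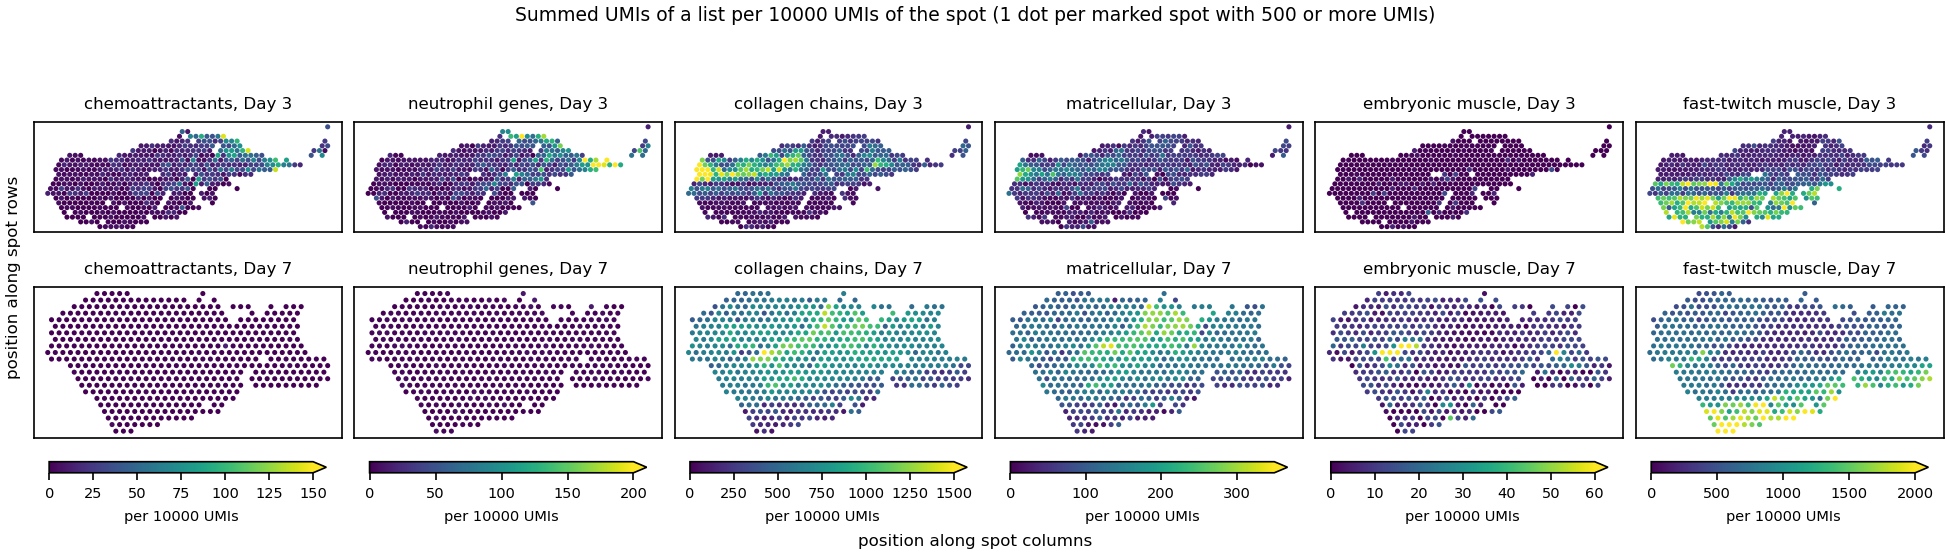
Each dot is a marked spot with 500 or more UMIs at its position on the slide, Day 3 above and Day 7 below, coloured by the summed UMIs of a list per 10000 UMIs of the spot (values above the scale take its top colour). Chemoattractant and neutrophil spots cluster at the right end of the Day 3 section and are near 0 on Day 7, collagen and matricellular spots form a band on Day 3 and cover most of the Day 7 section, and embryonic muscle genes are spread over the Day 7 section at low levels with a small group of high spots.

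The CC chemokines, which draw monocytes and eosinophils, and their receptors were lower by smaller factors than the neutrophil chemoattractants. The list summed to 2277 CPM on Day 3 against 428 CPM on Day 7, 5.32-fold lower, and 9 of 10 members were lower. Of all genes 6.49% were lower. *Ccr1* and *Ccl24* had 29 or fewer UMIs on Day 7 and passed the minimum through Day 3. The count of members is thus partly set by it. *Ccl8* was at 858 CPM on Day 3 against 119.97 CPM on Day 7 (log2 ratio -2.84, -2.98 to -2.70). The monocyte chemoattractant *Ccl2* was at 136 and 18.01 CPM and its receptor *Ccr2* at 149 and 48.2 CPM. *Ccl6* was at 462 and 88.7 CPM and *Ccl9* at 282 and 71.3 CPM. *Ccl11*, the eosinophil chemokine eotaxin, was neither, at 43.4 and 25.2 CPM. The genes form adjoining groups on chromosome 11: 3 of the 5 at chr11:82035571-82116799 and all 4 at chr11:83572919-83664683, *Ccl3* and *Ccl4* among them, were lower.

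Markers shared by mononuclear phagocytes summed to 3595 CPM on Day 3 against 2241 CPM on Day 7, a log2 ratio of -0.68 (-0.73 to -0.64), and differed among themselves. The 3 with intervals that include 0 were *Adgre1* (F4/80) at 100.4 and 94.5 CPM, *Cd68* at 95.9 and 90.7 CPM and the signalling adaptor *Tyrobp* at 244 and 218 CPM. *Lyz2*, lysozyme, was at 1489 and 1076 CPM (-0.47), *Fcer1g*, an Fc receptor subunit, at 273 and 205 CPM (-0.41) and the protease *Ctss* at 331 and 194 CPM (-0.77), all with intervals under 0 but short of 2-fold. *Cd14*, the lipopolysaccharide co-receptor of monocytes and neutrophils, was at 292 CPM on Day 3 against 11.3 CPM on Day 7 (-4.70, -5.15 to -4.28). *Itgam*, an integrin of both cell types, was at 110.0 and 21.2 CPM (-2.38). The list of 10 had 4 lower members and a median of -0.62, and *Csf1r* and *Laptm5* among those 4 were just past 2-fold, at 226 and 113 CPM and at 434 and 217 CPM.

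Genes of early activated macrophages were lower in 6 of 9 cases, with a median log2 ratio of -1.25. Of all genes 6.49% were lower. *Arg1*, which breaks down arginine, was at 117 and 10.1 CPM, and the thrombospondin gene *Thbs1* at 445 and 49.7 CPM. *Hmox1*, the haem-degrading enzyme, was at 288 and 59.4 CPM, and *Slc7a11*, the cystine transporter, at 35.0 and 1.58 CPM. *Spp1*, *Ly6c2* and *Inhba* were neither higher nor lower. *Arg1* and *Slc7a11* had 45 or fewer UMIs on Day 7 and passed the minimum through Day 3. The count of lower genes is thus partly set by it.

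Genes of resident and repair macrophages diverged. Several genes listed as resident markers were lower: *Mrc1*, the mannose receptor, at 310 and 79.0 CPM (log2 ratio -1.97), *Cd163*, the haemoglobin scavenger receptor, at 70.0 and 4.05 CPM (-4.11), and *Lyve1* at 24.3 and 3.60 CPM (-2.75). *Cd163* had 18 UMIs on Day 7 and passed the minimum through Day 3. *Folr2* did not pass the 2-fold rule, at 58.7 and 31.3 CPM (-0.91). Also lower were *Gas6* at 276 and 127 CPM, *F13a1* at 187 and 53.1 CPM and *Cbr2* at 143 and 41.4 CPM. Members that were not lower included *Trem2* at 76.7 and 112 CPM (0.55, 0.27 to 0.83), *Mmp12* at 25.96 and 42.8 CPM (0.72) and *Gpnmb* at 141 and 149 CPM (0.08). *Apoe*, which supplied more UMIs than any other member, stood at 4624 and 4734 CPM. Of the 14 members 6 were lower and none higher, the summed log2 ratio was -0.27 in the marked and 0.32 in the unmarked spots, and the complement C1q genes lay between, with log2 ratios from -0.98 to -0.50.

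Acute phase and complement genes were lower in 7 of 10 cases, with a median of -1.56. The serum amyloid gene *Saa3* was at 910.1 CPM on Day 3 against 15.3 CPM on Day 7, and lipocalin *Lcn2* at 23.7 and 1.80 CPM. Complement factor B, *Cfb*, was at 94.2 and 40.3 CPM, and its log2 ratio of -1.23 was 0.25 in the unmarked spots. *C1s1*, a protease of the classical pathway, was the member that did not share this direction, at 108 and 142 CPM (0.39, 0.16 to 0.63).

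Interferon-stimulated genes as a list differed little between the days, at 1093 and 1007 CPM summed, with a median of -0.05 and 1 of 10 members higher. That member was *Isg15*, a ubiquitin-like antiviral protein, at 11.8 and 26.3 CPM (1.15, 0.47 to 1.90). Its log2 ratio was -0.11 when all spots of each slide were used. Of the antigen-presentation genes of MHC class II, 1 of 7 was lower, *Cd74*, the invariant chain, at 1492 and 608 CPM, and the median was -0.37.

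Lymphocyte and mast cell genes were too sparse for most of their members. In the T cell list 2 of 8 genes had enough UMIs and neither passed, with a median of -0.10 and a summed log2 ratio of 0.20 (-0.17 to 0.59). In the mast cell list 3 of 7 had enough, and *Cma1*, a chymase, was lower with 30 UMIs on Day 3 against 33 on Day 7 (-1.19, -1.95 to -0.43) and a log2 ratio of 0.29 in the unmarked spots. A difference smaller than these intervals was not detectable at this depth.

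Immediate early genes, which are induced within minutes of a stimulus or of handling, were lower in 9 of 11 cases with a median of -1.49. Of all genes 6.49% were lower. *Ier3* was at 175 and 28.4 CPM, *Atf3* at 41.2 and 8.33 CPM and *Fosb* at 36.7 and 6.98 CPM, whereas *Jun* was at 122 and 108 CPM. *Atf3* and *Fosb* had 37 or fewer UMIs on Day 7 and passed the minimum through Day 3, so the count is partly set by it. The time between harvest and freezing is not given in the sources used here, and its part in the result was not tested. Of 13 hypoxia and glycolysis genes, 3 were lower and none higher, with a median of -0.67. The lower members were *Adm*, a vasodilator peptide, with 25.4 and 5.40 CPM, the oxygen sensor *Egln3* with 36.7 and 13.1 CPM, and *Pfkp*, while *Vegfa* was at 47.4 and 55.8 CPM.

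On the granulation side, the matricellular genes, whose secreted products act on cells more than they bear load, summed to 7150 CPM on Day 3 (7026 to 7275) against 16593 CPM on Day 7, a log2 ratio of 1.21. Among the 12 members, 6 were higher and 2 lower, with a median of 0.97. Tenascin C, *Tnc*, was at 145 CPM on Day 3 against 1172 CPM on Day 7 (3.01, 2.83 to 3.20). Periostin, *Postn*, was at 239.8 and 3692 CPM (3.94), and tenascin N, *Tnn*, at 5.08 and 319 CPM (5.97, 5.04 to 7.10). The thrombospondins *Thbs2* and *Thbs4* were at 181 and 694 CPM and at 5.64 and 55.4 CPM. The thrombospondin gene *Thbs1* went the other way, at 445 and 49.7 CPM (-3.16, -3.38 to -2.94). It was listed with the early activated macrophage genes, so the sum and counts of the matricellular list leave it out. *Thbs4* was lower on Day 7 in the unmarked spots, with a log2 ratio of -0.68. *Tnn* and *Thbs4* had 10 or fewer UMIs on Day 3 and passed the minimum through Day 7. The count of higher members is thus partly set by it.

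The provisional matrix was not uniform. Fibronectin, *Fn1*, was at 459 and 1029 CPM (1.17), while *Ccn2*, connective tissue growth factor, was at 86.9 and 34.2 CPM (-1.34) and *Tgfbi* at 475 and 235 CPM (-1.01). *Has2*, which makes hyaluronan, was neither, at 50.8 and 26.8 CPM, and the proteoglycan versican, *Vcan*, was at 74.5 and 119 CPM.

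The collagen chains were higher in 11 of 15 cases and lower in none, with a median log2 ratio of 1.77. *Col8a1* and *Col11a1* had 22 or fewer UMIs on Day 3 and passed the minimum through Day 7. This count is thus partly set by it. The chains of the main fibril, type I, did not pass the 2-fold rule: *Col1a1* was at 22693 and 30560 CPM (0.43) and *Col1a2* at 18681 and 19126 CPM (0.03). *Col3a1*, the chain of type III collagen that is typical of young granulation tissue, was at 6000.3 and 13815 CPM (1.20). Because type I supplied most of the UMIs, the list summed to 50760 and 76485 CPM, a log2 ratio of 0.59 that is lower than the median.

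Most of the other higher chains belong to minor types that regulate or coat fibrils or form their own filaments. Type V collagen, which sets fibril diameter, had *Col5a1* at 557 and 2656 CPM (2.25) and *Col5a3* at 111 and 365 CPM (1.71), while *Col5a2* was at 655 and 1156 CPM (0.82). All 3 type VI chains, which form beaded filaments around cells, were higher: *Col6a1* at 492 and 2472 CPM, *Col6a2* at 684 and 2329 CPM, and *Col6a3* at 321 and 1744 CPM. *Col6a1* and *Col6a2* are neighbours at chr10:76595762-76726168. The fibril-associated *Col12a1* was at 87.5 and 963 CPM (3.46), and *Col11a1* had 3 UMIs on Day 3 against 105 on Day 7 (3.80, 2.22 to 6.10).

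**Figure D4:**
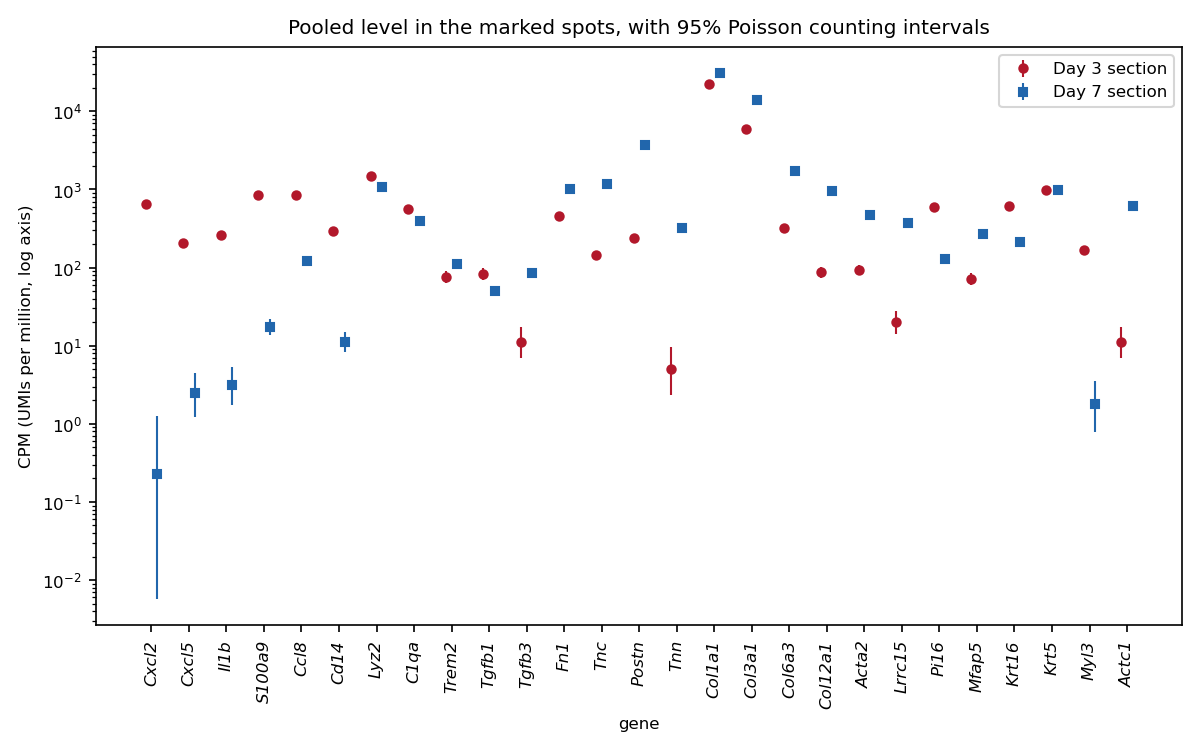
Pooled CPM of selected list genes on a log axis, with the Day 3 section as red circles, the Day 7 section as blue squares and exact Poisson 95% counting intervals as bars. Inflammatory genes at the left lie lower on Day 7, such as *Cd14* at 292 and 11.3 CPM, matrix genes in the middle lie higher, such as *Tnc* at 145 and 1172 CPM, and *Krt5* is level at 987 and 986 CPM. The list of basal keratinocyte genes that holds *Krt5* summed to 5210 CPM on Day 3 and 2985 CPM on Day 7.

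Collagen was also spread more evenly over the Day 7 section. After thinning, the median spot held 310 collagen UMIs per 10000 on Day 3 and 660 on Day 7, with quartiles of 100 and 580 on Day 3 and of 520 and 800 on Day 7. The 43 richest of 426 spots held 32.6% of the collagen UMIs on Day 3, and the 53 richest of 525 held 17.04% on Day 7. This was not particular to collagen. The same share fell for other lists, such as white fat (45.7% and 19.2%) and haemoglobin and iron genes (33.0% and 23.6%). It rose for some sparse lists, such as neutrophil genes (42.3% and 54.2%). Collagen and matricellular levels went together over spots on both days, with Pearson correlations of 0.70 and 0.76, and collagen and fast-twitch muscle levels were opposed, at -0.70 and -0.75. Neutrophil and collagen levels had correlations of 0.41 on Day 3 and 0.03 on Day 7. All spots of a day share 1 section and its gradient of depth and tissue, so these values describe the sections.

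The genes that modify and cross-link collagen summed to 3888 and 6104 CPM, a log2 ratio of 0.65 (0.61 to 0.69). In this list 3 of 14 members were higher and none lower, with a median of 0.56: the prolyl hydroxylase subunit *P4ha3* (12.98 and 56.3 CPM), *Loxl1* (282 and 665 CPM) and *Loxl2* (138 and 317 CPM). The classical lysyl oxidase, *Lox*, was at 314 and 283 CPM and the lysyl hydroxylase *Plod2* at 25.4 and 17.6 CPM. *Bmp1*, the procollagen proteinase, was just under the rule at 300.2 and 592 CPM (0.98), as was *P3h1* (0.95). *Serpinh1*, the collagen chaperone, was at 1406 and 2416 CPM (0.78). *P4ha3* had 23 UMIs on Day 3 and passed the minimum through Day 7, so the count is partly set by it. The count also depended on the spots, with 7 higher under equal weights or in the unmarked spots, and 1 higher and 2 lower without the rich spots.

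Contractile genes were higher in 6 of 11 cases and lower in none, with a median of 1.83. Smooth muscle actin, *Acta2*, which defines myofibroblasts, was at 93.1 and 474 CPM (2.35, 2.12 to 2.58) and *Tagln*, transgelin, at 30.5 and 136 CPM (2.16). *Lrrc15*, a membrane protein of activated fibroblasts, was at 20.3 and 370 CPM (4.19, 3.71 to 4.70), and the mesenchymal cadherin *Cdh11* at 78.4 and 314 CPM, a 4.0004-fold difference. *Myh11* and *Cnn1*, which mark mature smooth muscle, were at 33.3 and 29.9 CPM and at 10.2 and 14.4 CPM, with intervals that include no change. *Lrrc15* and *Actg2* had 36 or fewer UMIs on Day 3 and passed the minimum through Day 7. The count of higher genes is thus partly set by it.

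The tropomyosins *Tpm1* and *Tpm2*, which skeletal muscle also expresses, supplied 90.2% of the UMIs of this list on Day 3 and 79.6% on Day 7. Without them the list was at 468 and 1777 CPM, a log2 ratio of 1.92 (1.82 to 2.03), against 0.86 with them. Over spots, collagen was opposed to the whole list, with correlations of -0.54 and -0.56, and went with the list without tropomyosins, with 0.18 on Day 3 and 0.38 on Day 7. This division of the list was made after the values were seen.

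The ligands of transforming growth factor beta, which drives myofibroblast formation, differed in direction. Of the 13 genes listed for this pathway 1 was higher and 1 lower, with a median of 0.27. *Tgfb3* was at 11.3 CPM on Day 3 against 84.6 CPM on Day 7 (2.91, 2.26 to 3.63). *Tgfb2* was at 17.5 and 34.7 CPM (0.99, 0.42 to 1.59), just under 2-fold, and *Tgfb1*, the platelet and macrophage isoform, at 82.9 and 50.6 CPM (-0.71, -1.02 to -0.40). The intervals of the 3 ligands do not overlap. Among receptors and latent binding proteins, *Tgfbr1* and *Tgfbr2* were at log2 ratios of 0.27 and 0.44, *Ltbp3* at 0.91, and *Ltbp2* was lower at -1.16 with 36.1 and 16.2 CPM, but at 0.20 in the unmarked spots.

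Matrix proteases and their inhibitors also divided, with 3 of 13 members higher and 3 lower and a median of -0.068. The higher genes were the metalloproteinase *Mmp11* (18.6 and 231 CPM, 3.63), the collagenase *Mmp13* (20.9 and 49.97 CPM, 1.26) and *Plat*, tissue plasminogen activator (34.4 and 159 CPM, 2.20). Among the lower genes were the metalloproteinase inhibitor *Timp1* (546 and 196 CPM, -1.48) and the urokinase receptor *Plaur* (105 and 38.04 CPM, -1.46). Urokinase itself, *Plau*, was at 50.8 and 45.7 CPM.

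Cell cycle genes were at the background. Of 19 members none was higher and 2 were lower, with a median of -0.03, and the proliferation marker *Mki67* was at 49.1 and 36.5 CPM (-0.43, -0.81 to -0.04). The lower members were *Birc5*, which encodes survivin, at 76.7 and 27.7 CPM, and the thymidylate synthase gene *Tyms* at 39.5 and 19.4 CPM, whose log2 ratio of -1.03 was 1.02 in the unmarked spots. Over marked spots weighted equally the summed list had a log2 ratio of 0.46 in place of -0.08, so its direction depended on how spots were weighted.

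Endothelial genes passed the rule in both directions. Of 13 genes 1 was higher and 2 were lower, where 7.95% of all genes were higher and 6.49% lower. The list median was -0.21. The apelin receptor *Aplnr* was at 37.8 and 104 CPM (1.46, 1.08 to 1.85), while its ligand *Apln*, a product of sprouting tip cells, was at 96.5 and 18.01 CPM (-2.42, -2.82 to -2.03). *Flt1*, the VEGF decoy receptor, was at 42.3 and 19.4 CPM, and *Cdh5*, the junctional cadherin, at 68.3 and 94.1 CPM. Pericyte genes leaned upward, with 2 of 7 higher, *Pdgfrb* at 71.7 and 170 CPM and *Cspg4* at 16.4 and 34.2 CPM, and a median of 0.78.

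None of 13 genes of the secretory pathway and the unfolded protein response was higher or lower, with a median of -0.34. The chaperone *Hspa5* was at 629 and 358 CPM (-0.81) and *Calr* at 584 and 618 CPM (0.08).

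Genes of resting and adventitial fibroblasts were lower in 6 of 15 cases and higher in 2, with a median of -0.85. *Pi16* was at 605 and 129.9 CPM (-2.22), *Scara5*, a ferritin receptor, at 67.7 and 14.6 CPM (-2.21), and the chemokine *Cxcl12* at 411 and 140.4 CPM (-1.55). *Mfap5*, a microfibril protein, was at 71.7 and 267 CPM (1.90), and *Dpt*, dermatopontin, at 173 and 431 CPM (1.32). In the unmarked spots none of the 15 was higher or lower and the summed log2 ratio was -0.026 in place of -0.66, and *Apod*, lower in the marked spots (-1.08), was at 0.62.

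Small leucine-rich proteoglycans, which bind to collagen fibrils, showed 3 of 9 members higher and 2 lower. Biglycan, *Bgn*, was at 686 and 2145 CPM (1.65), asporin, *Aspn*, at 158 and 454 CPM (1.52) and fibromodulin, *Fmod*, at 11.8 and 36.2 CPM (1.61). Decorin, *Dcn*, was at 1125 and 802 CPM (-0.49), and *Prelp* at 189.0 and 77.4 CPM (-1.29). The median was 0.40. *Fmod* had a log2 ratio of -0.051 over all spots of the slides, so its direction depended on the marked area.

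Keratinocyte genes are given with the amount of epidermis in view, since 84 marked spots on Day 3 and 39 on Day 7 were rich in them. Among wound-activated genes 5 of 9 were lower and 1 was higher, at a log2 ratio of 1.05, with a median of -1.07. The stress keratins *Krt6b*, *Krt6a* and *Krt16* were at 398 and 42.1 CPM, at 485 and 147 CPM and at 619 and 212 CPM, and the cystatin *Stfa1* was at 72.8 and 9.23 CPM. Of the basal genes 4 of 9 were lower (median -0.86), among them the laminin chain *Lamb3* (-1.73) and *Krt14* (2580 and 953 CPM), whereas its partner *Krt5* was level. Of the cornifying genes 3 of 8 were lower (median -0.30), *Lor*, *Flg2* and *Ivl*, while *Flg*, profilaggrin, was at 40.6 and 74.7 CPM.

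Without the muscle-, keratinocyte- and sebaceous-rich spots the wound-activated list still had a lower sum on Day 7, at a log2 ratio of -0.84, while the basal and cornifying lists were at 0.17 and 0.37 in place of -0.80 and -0.64. The keratinocyte-rich spots were chosen by the genes of these same lists, so these values are partly set by that choice. The sebaceous list was lower in 8 of 9 members, with a median of -2.18 and a sum of 2419 and 699.5 CPM. The lipid elongase *Elovl4* was at 1194.5 and 332 CPM, and the defensin *Defb8* had 129 UMIs on Day 3 against 2 on Day 7 (-7.34, -10.40 to -5.46). As 93 Day 3 spots and 12 Day 7 spots were sebaceous-rich, the amount of gland in each section cannot be told apart from the day.

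Skeletal muscle genes separated by fibre type and by stage. Fast-twitch genes, which mark the adult muscle under the skin, had 1 of 12 members higher and 1 lower, a median of 0.31 and a summed log2 ratio of 0.40. Without the muscle-rich spots 6 of 12 were higher and the sum was at 1.03, and without all the rich spots 4 were higher and the sum was at 0.83. The muscle-rich spots were chosen by the fast-twitch, slow-twitch and embryonic muscle genes themselves, so these values are partly set by that choice. The fast myosin *Myh4* was at 4070.5 and 7083 CPM (0.80), and the calcium buffer *Pvalb* at 2057 and 4184 CPM (1.02). Every thinned spot of both days held fast-twitch UMIs, with a lower quartile of 210 per 10000 on Day 3 and 480 on Day 7. Which spots lay over muscle fibres was not determined.

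Slow-twitch genes were lower in 6 of 7 cases, with a median of -3.50. *Myl2*, the slow regulatory light chain, had 354 UMIs on Day 3 against none on Day 7, at least 296-fold lower. The slow myosin *Myh7* had 321 and 2 UMIs (-8.65, -11.70 to -6.79), and *Myl3* was at 169 and 1.80 CPM. *Myl2*, *Myh7* and *Myl3* had 8 or fewer UMIs on Day 7 and passed the minimum through Day 3, so the count is partly set by it. *Myh2*, the myosin of oxidative fast fibres, was at 434 and 37.4 CPM (-3.54). These genes were local on Day 3, where 43 of 426 spots held 73.5% of the slow-twitch UMIs, and the amount of slow muscle in each section cannot be told apart from the day. Without the muscle-rich spots, which were chosen partly by these genes, the summed log2 ratio was -1.32 in place of -2.30, and 4 of 7 members were lower.

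Genes of embryonic and regenerating muscle showed the opposite. The list of 11 summed to 40.6 CPM on Day 3 (72 UMIs) against 1015 CPM on Day 7, 24.98-fold higher. The 8 members with enough UMIs, each called higher, had 20 or fewer on Day 3 and so passed the minimum through Day 7, which makes their common direction no finding of its own. *Actc1*, the cardiac actin that immature muscle fibres use, was at 11.3 and 614 CPM (5.77, 5.14 to 6.48), and *Myl4*, the embryonic light chain, at 7.34 and 187 CPM (4.68). *Myh8*, perinatal myosin, had 3 UMIs on Day 3 against 313 on Day 7 (5.38, 3.82 to 7.66).

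Genes of muscle formation and fusion were among the members that passed the minimum through Day 7. Their direction is therefore no separate finding. *Myog*, myogenin, was at 8.46 and 34.4 CPM (2.02). The fusion proteins *Mymk* (myomaker) and *Mymx* (myomixer) had no UMI on Day 3 and 77 and 59 on Day 7, at least 10.2-fold and 7.84-fold higher. The acetylcholine receptor subunit *Chrna1* was at 5.64 and 37.4 CPM (2.73). Embryonic genes were found in all but 45.5% of the thinned Day 7 spots and in all but 94.6% of those of Day 3, and their correlation with fast-twitch levels over the Day 7 spots was 0.09.

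The *Actc1* promoter is shown as that of the embryonic gene with the most UMIs. The window is from RefSeq on GRCm38.p6, chr2:114052858-114052977 on the minus strand, and the capitals mark its match to the CArG box, the element bound by serum response factor, at -47 from the start site.
Actc1: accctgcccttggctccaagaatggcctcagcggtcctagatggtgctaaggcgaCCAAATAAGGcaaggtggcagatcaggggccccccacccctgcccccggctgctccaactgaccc

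A CArG box was found in 535 of 32851 promoters (1.63%). Counted by gene, with a match in any of its promoters, it was found in 13 of 645 genes higher on Day 7 (2.02%) and in 7 of 498 genes lower (1.41%). Both motifs were searched separately on both strands. Among the other muscle genes listed, the smooth muscle light chain *Myl9*, higher at 56.4 and 200.1 CPM, the adult genes *Acta1* and *Myh4*, neither higher nor lower, and *Myl3*, lower, also held it.

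White fat genes were level as a group in the marked spots. Of 9 white fat genes 1 was higher and 1 lower, with a median of 0.19 and a summed log2 ratio of -0.02. That sum depended on the spots, at 0.39 over all spots of the slides and 0.42 in the unmarked spots. Without the muscle-, keratinocyte- and sebaceous-rich spots it was at -0.51. Leptin, *Lep*, was at 6.77 and 29.3 CPM (2.11, 1.26 to 3.10), and the carbonic anhydrase *Car3* at 2235 and 678 CPM (-1.72). In the thermogenic list 4 of 8 members had enough UMIs. *Ucp1*, the uncoupling protein of brown and beige fat, had no UMI on Day 3 and 430 on Day 7, at least 57.2-fold higher, while *Cox8b* was at 535 and 339 CPM and *Elovl3* at 218 and 36.2 CPM (-2.59). The median of this list was -0.63. Its sum was at 973 CPM on Day 3 and 618 CPM on Day 7, a log2 ratio of -0.65 (-0.74 to -0.57). That sum also depended on the spots, at -0.12 without the muscle-rich spots. Without the muscle-, keratinocyte- and sebaceous-rich spots it was at 0.095, so no direction is read from it.

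The haemoglobin genes, which report red blood cells, were all lower on Day 7, and the part of blood left in the tissue was not tested. *Hbb-bs* was at 1661 and 144 CPM (-3.53) and *Hba-a1* at 971 and 65.7 CPM (-3.88), and 4 of 7 genes of haemoglobin and iron were lower. The iron exporter *Slc40a1* was higher, at 22.01 and 55.1 CPM (1.33, 0.83 to 1.85), and the ferritin genes *Fth1* and *Ftl1* were at -0.51 and 0.29. The list median was -3.23. Of 5 Schwann cell genes 1 was higher, *Sox10*, at 12.4 and 28.8 CPM, and the median was -0.58. Near-identical genes such as *Hba-a1* and *Hba-a2*, *Krt6a* and *Krt6b*, the *Sprr2* genes or the fast myosins can share reads, so their single values are less certain than their direction as a pair or family.

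Outside the lists, the genes with the highest interval bounds included secreted and matrix genes. *Prss35*, a serine protease-like gene, had 2 UMIs on Day 3 against 1193 on Day 7 (7.89, 6.04 to 10.94). *Sorcs2*, a sorting receptor, had 3 and 527 UMIs (6.13, 4.58 to 8.41). *Col7a1*, the anchoring fibril collagen under the epidermis, was at 45.1 and 531 CPM (3.56), and *Mdk*, the growth factor midkine, at 17.5 and 227 CPM (3.19 to 4.27 on the log2 scale). *Megf6* was at 9.59 and 171 CPM (4.16), and *Bc1*, a neuronal non-coding RNA, at 56.4 and 620 CPM (3.46). *Crym* had no UMI on Day 3 and 83 on Day 7, at least 11.0-fold higher. At the other end *Cstdc4*, a cystatin-like gene, had 103 and 2 UMIs (-7.01, -10.08 to -5.12).

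The programme counts were repeated in other sets of spots. Without the muscle-, keratinocyte- and sebaceous-rich spots, which left 319 spots on Day 3 and 397 on Day 7, 67 of 108 inflammation genes were lower (62.0%) and none higher, and 32 of 130 granulation genes were higher (24.6%). In this set 9.08% of all genes were higher and 6.59% lower. In the unmarked spots of the slides, 66 of 128 inflammation genes were lower and 5 higher, and 37 of 129 granulation genes were higher, where 5.57% of all genes were lower and 9.27% higher. With the Day 7 counts thinned to the Day 3 total, 61 of 111 inflammation genes were lower and 36 of 125 granulation genes higher, where 6.89% of all genes were lower and 7.21% higher. The set without these spots was chosen after the data were seen.

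**Figure D5:**
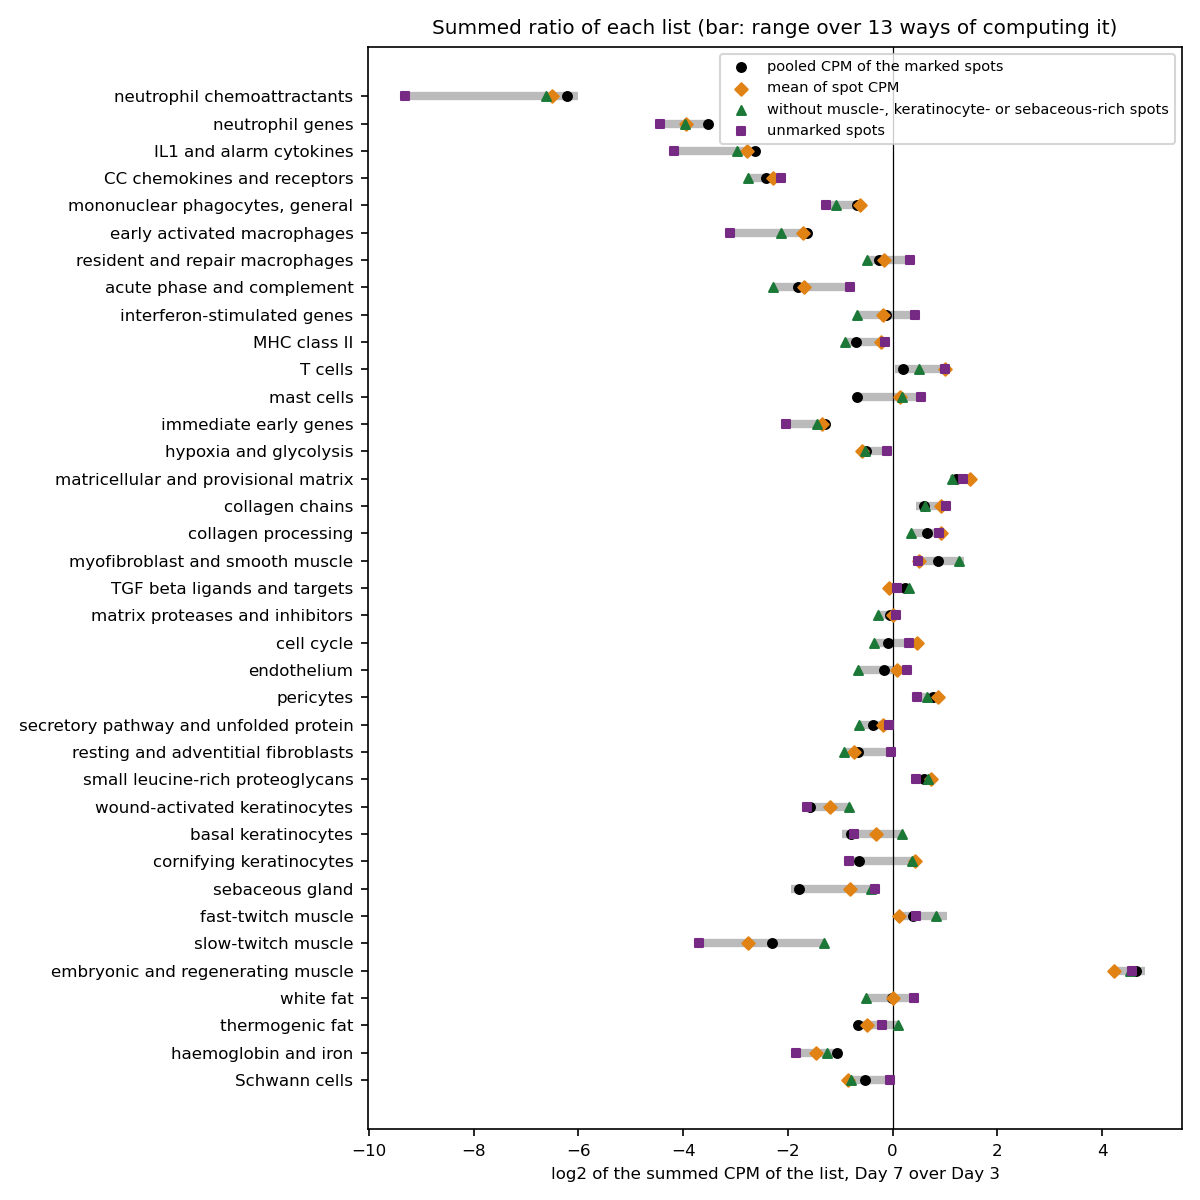
The log2 ratio of each list's summed CPM on Day 7 over Day 3; black circles are the marked spots, other symbols are 3 of the alternatives, and grey bars span all 13 ways of computing the value. Neutrophil chemoattractants range from -9.31 to -6.00, collagen chains from 0.45 to 1.02 and embryonic muscle from 4.22 to 4.82, while basal keratinocytes range from -0.96 to 0.17 and cross 0.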

How the data were processed

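Spatial RNA was measured in 1 section of a wound per day, Days 3, 7 and 14, and Days 3 and 7 were compared. The authors deposited raw UMI counts per gene and spot, made with Space Ranger 1.3.0 on mm10 per the submitters' processing notes; the other settings were not stated. No normalised values were used.

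UMI counts were summed over the marked spots and scaled to CPM. Intervals were exact, Poisson for a CPM and conditional binomial for a ratio, at 95%, and cover counting error only. Genes needed 50 UMIs over both sections, a call needed a ratio of 2 or more in either direction and an interval that excludes 1, and a section at 0 was set to a floor of 3 UMIs for bounds. The median marked spot held 1513 UMIs on Day 3 and 6687 on Day 7. A spot covers several cells, so no cell types were called and no doublet caller was run. Per-spot levels were compared after each spot was thinned to 1000 UMIs (seed 1), which left out 238 spots on Day 3 and 24 on Day 7. Spots were called rich in muscle, keratinocyte or sebaceous genes at 2 times or more the share over both sections. The genes were those of the muscle, keratinocyte and sebaceous lists, so ratios of these lists without rich spots are partly set by the choice.

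The members and the 37 lists (409 genes) were chosen with earlier results of these data known. Genes named are list members, led by those with most UMIs and the highest or lowest ratios, and, from all genes, 15 at each end ranked by the bound of the interval that is nearest to no change. Some list members are counted but not reported by name here. Gene positions were from GENCODE M21 on GRCm38 (409 of 409 matched) and promoters, 250 bases before to 50 after the start site, from RefSeq on GRCm38.p6 (293 of 409 matched).

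Alternatives were other minimums, folds, denominators and sets of spots, Day 7 thinned to the Day 3 total, and scale factors from edgeR 4.0.16 (TMM) and DESeq2 1.42.0, which were used for nothing else. The scripts were tested on simulated data. Python 3.11.15, numpy 2.4.6, scipy 1.17.1, pandas 2.3.3, matplotlib 3.10.9 and R 4.3.3 were used.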

Additional observations from a re-analysis of the deposited data

Results flagged for a closer look

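Some lists had levels in the unmarked spots of the slides, which the comparison did not use, that were at least 2 times those in the marked spots. On Day 3 the neutrophil chemoattractants were 2.35 times as high there (3149 against 1341 CPM) and the neutrophil genes 2.33 times (5508 against 2365 CPM). The myofibroblast and smooth muscle list was 2.07 times as high on Day 3, and fast-twitch muscle 2.12 times on Day 3 and 2.19 times on Day 7. White fat was 2.38 times as high on Day 7, thermogenic fat 2.25 times on Day 3 and 3.08 times on Day 7, and haemoglobin and iron genes 2.0004 times on Day 3. The unmarked spots had a median of 91 UMIs on Day 3 and 453 on Day 7. These slides held no control section, and the source of the RNA in unmarked spots was not tested.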

How the results depend on the processing

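With 1 section per day no section could be left out, and differences between animals were not measured. No paired analysis was possible because each day had 1 section and the groups share a single replicate number. The calls moved with the thresholds: 347 genes were higher and 329 lower at a minimum of 200 UMIs, 288 and 257 at a ratio of 3, and 264 and 333 with the whole interval past 2-fold, while 1098 were lower with no minimum. The share of higher genes among the calls was 55.06% in the main comparison and 44.22% with the whole interval past 2-fold. Weighting spots equally (mean of spot CPM, called by fold alone as it has no interval) gave 1969 higher genes, a share of 69.7%, and a median log2 ratio of 0.27 over all genes, and the median was 0.12 in the unmarked spots. The causes were not tested. Other settings kept both counts within 1.5 times. Of 37 summed lists, 13 were past 2-fold, and none of these changed direction under 12 alternatives. Of 170 genes called among 363 named or listed (genes with no UMI in 1 section have no ratio), 10 changed direction in at least 1 alternative. Over all spots these were *Isg15* (-0.11) and *Fmod* (-0.051). In unmarked spots they were *Isg15* (-1.46), *Fmod* (-0.99), *Hp* (0.10), *Cfb* (0.25), *Cma1* (0.29), *Thbs4* (-0.68), *Ltbp2* (0.20), *Tyms* (1.02) and *Apod* (0.62). Without muscle-, keratinocyte- and sebaceous-rich spots, an alternative added after the data were seen, *Lama3* was at 0.094. The sebaceous list, at -1.79 in the main comparison, was at -0.40 without these spots and at -0.34 in unmarked spots. The Day 3 depth sets the widths: genes with few UMIs there, such as *Col11a1*, have intervals that span several log2 units.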

Other observations

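Among the genes outside the lists, the following were picked after looking at the values. The imprinted genes *H19*, a long non-coding RNA, and *Igf2*, a fetal growth factor, which are neighbours in the genome and are expressed in regenerating muscle, were both higher on Day 7. *H19* had 161 UMIs on Day 3 and 3013 on Day 7, at 90.8 and 678 CPM (log2 ratio 2.90, 2.67 to 3.14). *Igf2* had 5 and 232 UMIs, at 2.82 and 52.2 CPM (4.21). The positional gene *Hoxc10* had 2 and 161 UMIs (log2 interval 3.13 to 8.06), *Hoxa10* had 0 and 67, and *Lbx1*, a factor of migrating muscle precursors, had 0 and 60.

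On the side of Day 3, *Acod1*, the itaconate-producing enzyme of activated myeloid cells, had 68 UMIs on Day 3 and 1 on Day 7 (log2 ratio -7.41). *Hdc*, which makes histamine, was at 100.4 and 1.80 CPM (-5.80), and the glucose transporter *Slc2a3* at 168 and 4.50 CPM (-5.22). *Prg4*, the lubricating proteoglycan lubricin, was at 119 and 2.93 CPM (-5.35).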
